A study of Mus musculus with 7 samples.

Results

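Chemokines and their receptors were followed in 7 Affymetrix arrays of cells sorted from mouse bone marrow stroma. The members were chosen by name: a gene counted if its probe set carried exactly 1 platform symbol made of Ccl, Cxcl, Ccr, Cxcr or Ackr and a digit, or was Cx3cl1, Cx3cr1, Xcl1 or Xcr1. Cxcl12 was left out by that rule. This gave 52 of 12393 genes on the array, 31 ligands and 21 receptors, each read by its probe set of highest mean signal. Probe sets for Ccl19, the Ccl21 genes and further Ccl27 copies carried several symbols and were not analysed here.

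All samples came from OsxCre-mCherry;OcnCre-Topaz mice that carried both transgenes, were 4 to 6 weeks old and were sorted 6 days after tamoxifen induction. The Osx+ group held 4 arrays of cells sorted for the mCherry reporter tied to osterix, and the Ocn+ group held 3 arrays of cells sorted for the Topaz reporter tied to osteocalcin. Osterix is a transcription factor needed to make osteoblasts, and osteocalcin is a matrix protein of the mature ones. The labels do not say how many animals stand behind an array or whether arrays share one, and a p-value here reflects no more than the array-to-array spread, part of which may be technical. Cells sorted for both reporters were not analysed here. The comparison asks how the chemokine system of osteocalcin-marked cells differs from that of osterix-marked cells.

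Chemokines are small secreted proteins that guide moving leukocytes. They are named for the spacing of cysteines near their start, which gives the CC, CXC, CX3C and XC classes, and they act on receptors that span the membrane and signal through inhibitory G proteins. A further set, the atypical receptors of the Ackr class, binds chemokines without that signal and takes them up or holds them. In marrow, chemokines from stroma and vessels govern the retention of blood progenitors and the exit of monocytes, neutrophils and lymphocytes, and several of them also act on osteoclast precursors.

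The median difference, Ocn+ minus Osx+ on the log2 scale, was -0.09 over the 31 ligands and -0.07 over the 21 receptors, beside 0.02 over all 12393 genes. The ligand median ran from -0.38 without Ocn+ replicate 1 to 0.24 without Ocn+ replicate 2. Over the 7 receptors that were not under the 25th percentile of signal the median was 0.42, opposite in sign. Of the ligands 15 had a difference above 0 and 16 below, and of the receptors 9 above and 12 below, where 52.7% of all genes lay above. After Benjamini-Hochberg adjustment over all genes, limma called 0 of the 52 members at a threshold of 0.05, as it called 0% of all genes. At an unadjusted p under 0.05 it held 4 members, namely the ligands Cxcl13, Xcl1 and Ccl27a and the receptor Ccr9. That is 7.69% of the members against 5.31% of all genes, a share near the background. Higher in Ocn+ were 2 of them, as were 3.48% of all genes, and lower were 2, as were 1.83% of all genes. Without Ocn+ replicate 3 the count of 4 was 0, and it was 2 without Ocn+ replicate 2, Osx+ replicate 1 or Osx+ replicate 2.

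**Figure D1:**
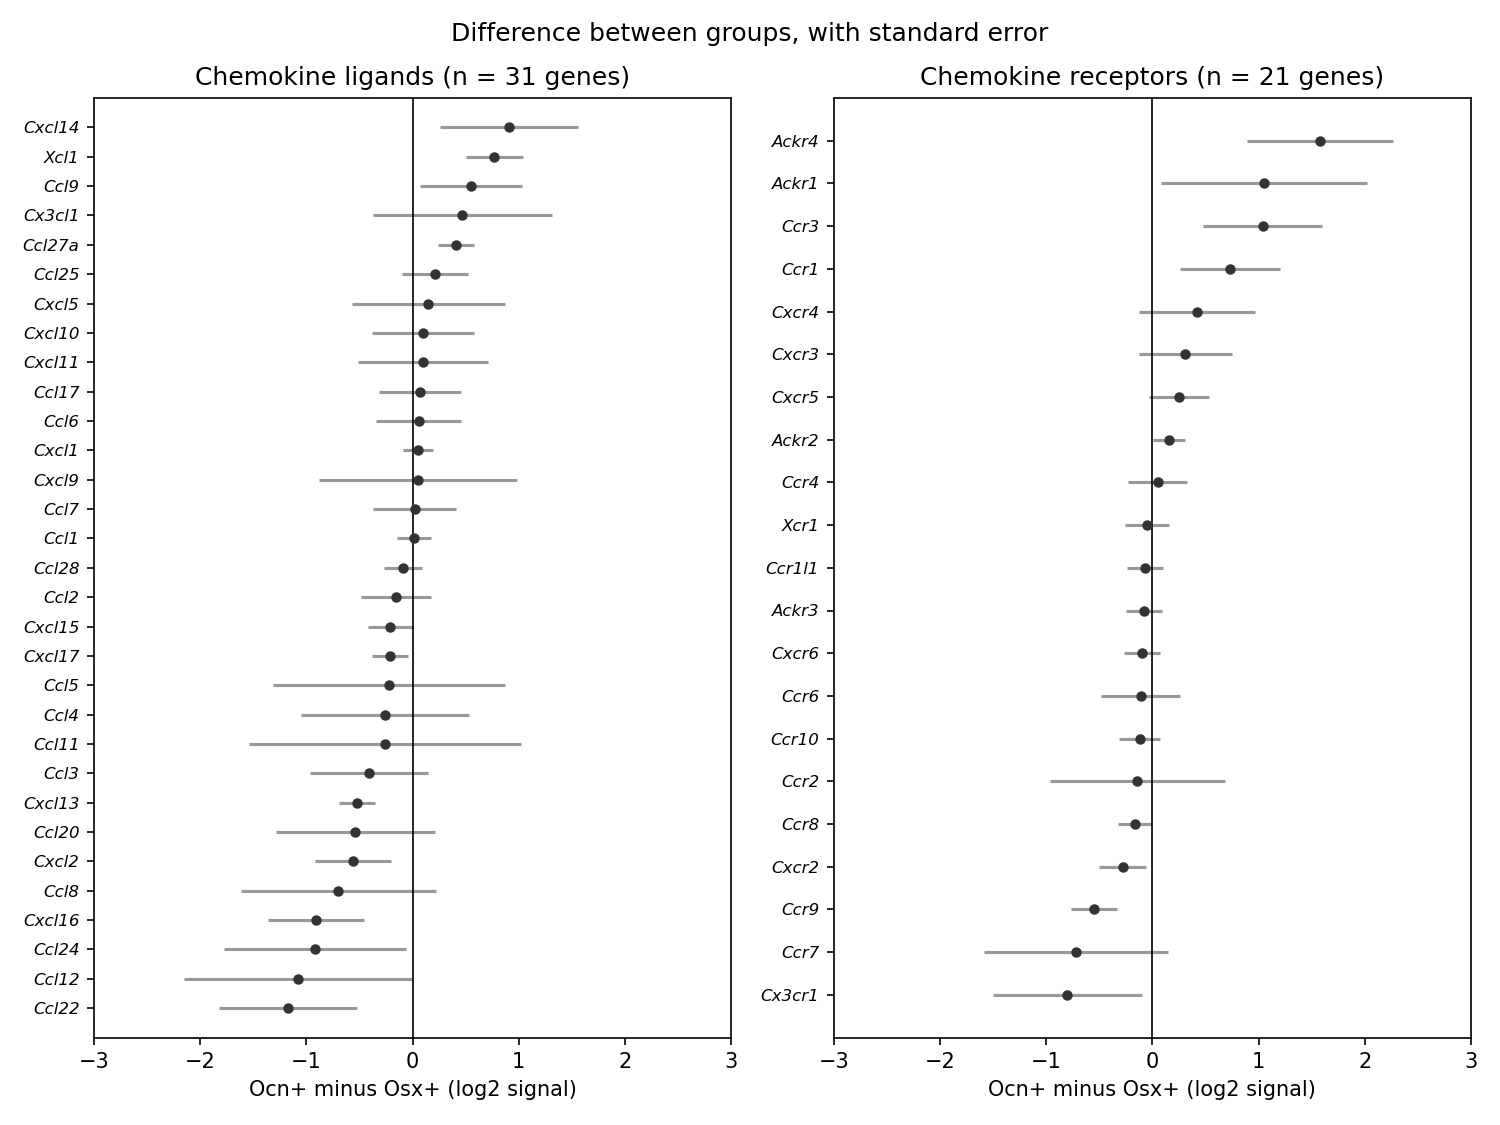
Difference in log2 signal (Ocn+ minus Osx+) for each of the 31 ligands and 21 receptors, with points for the estimate and bars for its standard error. The points lie on both sides of 0, from -1.17 for Ccl22 to 0.91 for Cxcl14 among ligands and from -0.80 for Cx3cr1 to 1.58 for Ackr4 among receptors.

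The arrays of both groups did not overlap for 6 members, or 11.5%, against 6.90% of all genes. In the Ocn+ arrays 3 of them (Xcl1, Ccl27a and Ccr3) stood above every Osx+ array and 3 (Cxcl13, Ccl22 and Ccr9) below, where 4.37% of all genes lay wholly above and 2.53% wholly below. For Ccr3, a dim gene, the groups nearly met, with 4.04 in Ocn+ replicate 2 and 4.03 in Osx+ replicate 2. For 32 of the 52 members the difference was smaller than its own standard error. The median standard error was 0.48 for ligands and 0.28 for receptors. Of the 17 further probe sets of members, 13 differed in the same direction as the one used and 4 (of Ackr2, Ccl6, Ccr1 and Cxcl11) in the opposite one.

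A division of the arrays that the labels do not name touches these results. Xist, the RNA that coats the inactive X chromosome of female cells, gave a log2 signal of 4.87 to 5.79 in 3 arrays (Ocn+ replicate 1, Osx+ replicates 1 and 3) and of 12.33 to 12.96 in the other 4. The Y-linked gene Eif2s3y stood between 8.03 and 10.41 in 6 arrays and at 4.03 in Osx+ replicate 4, so 3 arrays carried signal of both genes. Kdm5d, also Y-linked, was 7.66 in Osx+ replicate 1 and dim in the others, from 4.09 to 5.49. The double signal therefore rests on Eif2s3y alone. The low-Xist arrays lay wholly above the high-Xist arrays for 21.4% of all genes and wholly below for 12.9%, where the groups did not overlap for 6.90%. Array medians of all probe sets were nearly equal, from 8.25 to 8.35. Values that account for the class by a term in the model are therefore given beside the main ones for part of the members. With that term 8 members had an unadjusted limma p under 0.05, or 15.4% against 16.0% of all genes, and again 0 passed after adjustment. The 8 were Ccl27a, Cx3cl1, Cxcl10, Cxcl13, Cxcl14, Xcl1, Ackr4 and Ccr9.

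The labelled cell type was checked against its markers. Of 14 osteoblast lineage genes listed 10 were measured, and Bglap, the osteocalcin gene, was not among them. Some were bright in all arrays. Col1a1 (the chain of bone collagen) lay between 14.91 and 15.05 and Alpl (the mineralizing phosphatase) between 13.63 and 13.87. Sp7 (osterix) lay between 12.15 and 12.93. Mepe, Sost and Phex were dimmer and less even. They ran from 10.35 to 11.44, 8.92 to 10.01 and 9.95 to 11.67 in Ocn+ arrays. In Osx+ arrays they ran from 5.52 to 10.17, 7.53 to 9.57 and 7.79 to 12.03. Markers of other cells were present too. The mean of 17 endothelial markers ran from 9.47 to 9.81 in Ocn+ and from 6.31 to 9.05 in Osx+ arrays, and that of 11 neutrophil markers from 10.93 to 11.15 and from 7.38 to 10.59. The mean of 15 monocyte and macrophage markers ran from 9.72 to 10.76 in Ocn+ and from 10.89 to 11.98 in Osx+ arrays. At an unadjusted limma p under 0.05 these lists held 12, 7 and 0 genes higher and 0, 0 and 6 lower in Ocn+. Of 8 osteoclast markers 5 were higher. At the same level 3.48% of all genes were higher and 1.83% lower. Of the other lists, perivascular stroma held 3 of 10 higher, mast cells and eosinophils 2 of 9, T and natural killer cells 2 of 11, the osteoblast lineage 1 of 10, B cells 0 of 9, dendritic cells 0 of 8 and erythroid cells 0 of 6, with 0 lower in each, and no marker passed after adjustment. In such bulk samples fewer cells of a type and less RNA per cell cannot be told apart, and no detection calls were used, so a dim signal may be background. Of the members, 22 ligands and 7 receptors had a mean at or above 6.03, the 25th percentile of all genes.

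Among the ligands, the smallest p belonged to Cxcl13, the chemokine that draws B cells through CXCR5. In replicate order its log2 signal was 5.41, 5.41 and 5.17 in Ocn+ and 5.64, 5.77, 6.13 and 5.87 in Osx+ arrays. Every Ocn+ array lay below every Osx+ array, all of them in the dim part of the scale. The difference was -0.52 (SE 0.17) and the adjusted limma p was 0.888. It was -0.51 with the Xist class in the model. The other Cxcl13 probe set differed by -0.25 (SE 0.20).

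Xcl1, the XC chemokine of activated T and natural killer cells, stood at 5.49, 5.26 and 5.26 in Ocn+ and at 4.46, 4.52, 4.09 and 5.21 in Osx+ arrays. The Ocn+ arrays were above the Osx+ arrays by a narrow margin at Osx+ replicate 4. The difference was 0.77 (SE 0.27, limma adjusted p = 0.888). T and natural killer cell markers were dim, with a mean of 11 genes of 5.08 to 5.32 in Ocn+ and 4.78 to 5.13 in Osx+ arrays, and their part in the Xcl1 difference was not tested.

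Ccl27a, a CC chemokine of skin epithelium, stood at 7.08, 6.85 and 6.81 in Ocn+ and at 6.46, 6.41, 6.77 and 6.39 in Osx+ arrays. The groups were apart, with Osx+ replicate 3 close to the lowest Ocn+ array. The difference was 0.41 (SE 0.17, limma adjusted p = 0.935). Near-identical copies of this gene exist, and 2 further probe sets on the array carry their symbols beside its own, so the signal may be shared.

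Cxcl16, a membrane-bound chemokine of macrophages and vessels, was 10.18, 9.10 and 9.42 in Ocn+ and 11.18, 10.93, 10.28 and 9.54 in Osx+ arrays. The lowest Osx+ array lay inside the Ocn+ range. The difference was -0.91 (SE 0.45, limma adjusted p = 0.999), and the second probe set of the gene gave -0.85. Ccl22, which attracts regulatory and helper T cells through CCR4, was 5.15, 4.85 and 4.90 in Ocn+ and 8.04, 5.39, 5.62 and 5.48 in Osx+ arrays. Here 1 array, Osx+ replicate 1, carried most of the difference of -1.17 (SE 0.65), which was -0.53 without it. Macrophage markers stood lower in the Ocn+ arrays as well, and their part in the values of Cxcl16 and Ccl22 was not tested.

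**Figure D2:**
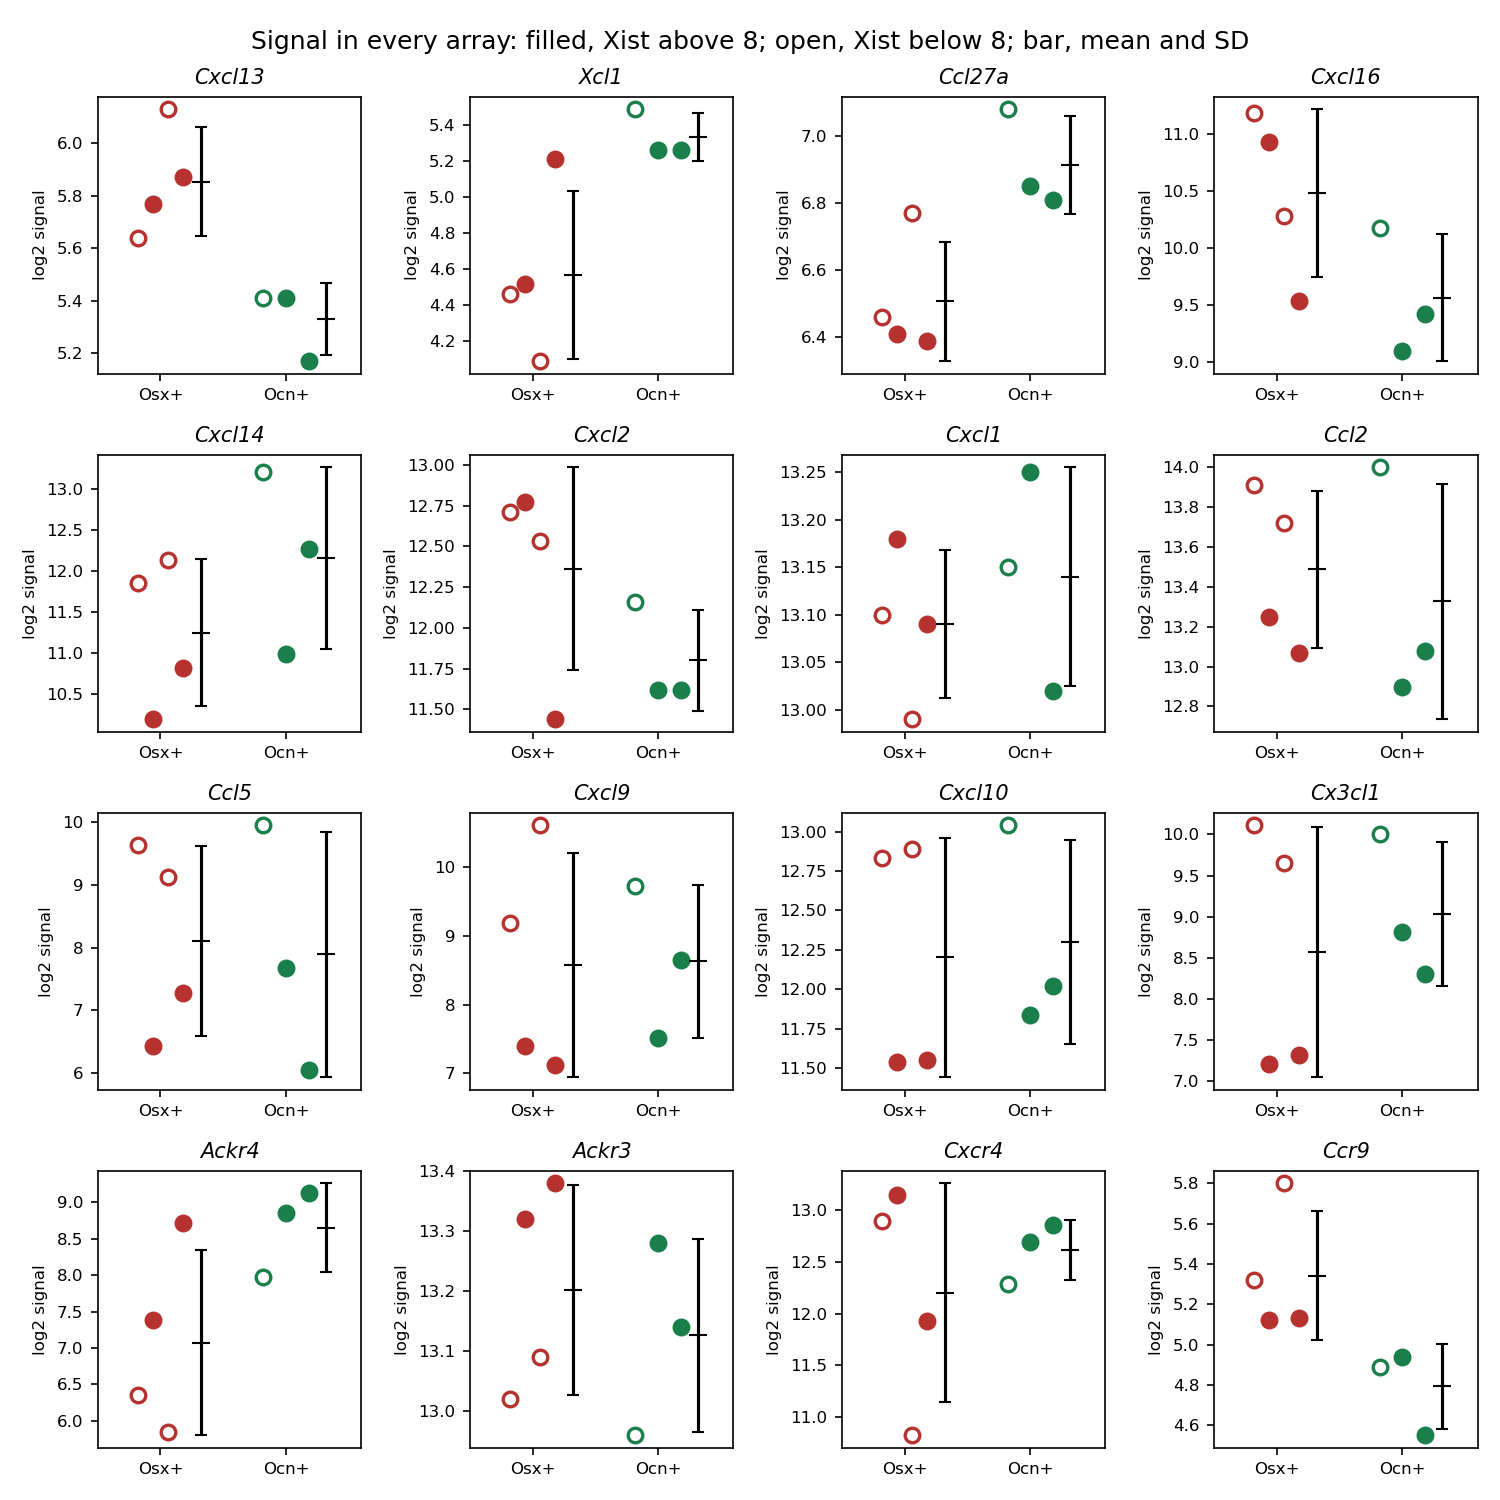
Log2 signal of 16 members in every array, with red points for the 4 Osx+ and green points for the 3 Ocn+ arrays, filled where Xist was above 8 and open where it was below, and bars for mean and SD. Axes differ between panels and do not start at 0. Open points lie together at the top of Ccl2, Ccl5, Cxcl9, Cxcl10 and Cx3cl1 in both groups. Cxcl13 and Ccr9 separate by group with Ocn+ lower, and Xcl1 and Ccl27a with Ocn+ higher.

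The neutrophil-attracting CXC ligands share the receptor CXCR2. Cxcl1 was the steadiest of them, at 13.15, 13.25 and 13.02 in Ocn+ and 13.10, 13.18, 12.99 and 13.09 in Osx+ arrays. All 7 arrays lay within 0.26 log2 units of each other, and the difference was 0.05 (SE 0.14). Cxcl2, its neighbour on chromosome 5, was 12.16, 11.62 and 11.62 in Ocn+ and 12.71, 12.77, 12.53 and 11.44 in Osx+ arrays. Osx+ replicate 4 was the lowest array of all and the other Osx+ arrays the highest, for a difference of -0.56 (SE 0.36, limma adjusted p = 0.999). Without that array it was -0.87. Cxcl5, the third of these ligands, was 8.51, 6.60 and 6.96 in Ocn+ and 7.87, 6.12, 8.52 and 6.32 in Osx+ arrays. It differed by 0.15 (SE 0.72) and was higher in every low-Xist array than in any high-Xist array. Cxcl15, a lung chemokine, stood between 3.68 and 4.47 in all arrays.

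Grouped here under CCR2, the receptor that brings monocytes out of marrow, were Ccl2, Ccl7, Ccl12 and their relative Ccl8. The arrays overlapped between the groups for each of these 4 genes. Ccl2 was 14.00, 12.90 and 13.08 in Ocn+ and 13.91, 13.25, 13.72 and 13.07 in Osx+ arrays, a difference of -0.16 (SE 0.33). The 3 low-Xist arrays were the highest of the 7. Ccl7 had a mean of 12.91 ± 0.75 (SD, n = 3) in Ocn+ and 12.90 ± 0.43 (SD, n = 4) in Osx+ arrays. Ccl12 and Ccl8 were set apart by 1 array: Ocn+ replicate 2 stood at 6.75 and 4.90, whereas the other 6 arrays ran from 10.53 to 11.72 and from 6.81 to 8.79. The differences of Ccl12 and Ccl8 were -1.08 (SE 1.07) and -0.70 (SE 0.92), and without that array 0.40 and 0.40.

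Ligands of CCR1 and related CC chemokines act on monocytes, T cells and osteoclast precursors. Ccl3 was 13.10, 10.84 and 12.44 in Ocn+ and 13.27, 12.68, 11.98 and 12.22 in Osx+ arrays, a difference of -0.41 (SE 0.56). Ccl4 was 11.74, 9.06 and 10.12 in Ocn+ and 12.23, 10.20, 10.16 and 9.67 in Osx+ arrays, a difference of -0.26 (SE 0.79). In both genes Ocn+ replicate 2 was the lowest array, and without it the differences were 0.24 and 0.37. Ccl9, which osteoclasts secrete and to which their precursors respond, was 12.78, 12.58 and 12.50 in Ocn+ and 12.73, 12.46, 12.39 and 10.68 in Osx+ arrays. Osx+ replicate 4 stood apart as the lowest, and the difference of 0.55 (SE 0.48) was 0.09 without it. Ccl6, a close relative, was 9.93, 10.01 and 9.71 in Ocn+ and 9.84, 10.89, 9.45 and 9.12 in Osx+ arrays, a difference of 0.06 (SE 0.40). Its other probe set differed by -0.30.

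Ccl5, a chemokine of T cells and inflamed stroma, had one of the widest ranges. It was 9.94, 7.67 and 6.06 in Ocn+ and 9.62, 6.43, 9.12 and 7.27 in Osx+ arrays. The spread within each group, 1.95 (SD, n = 3) and 1.51 (SD, n = 4), was far larger than the difference of -0.22 (SE 1.09), which was 0.70 without Ocn+ replicate 3. The lowest low-Xist array, at 9.12, stood above the highest high-Xist array, at 7.67.

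The interferon-induced ligands of CXCR3 include Cxcl9, Cxcl10 and Cxcl11. Cxcl9 was 9.73, 7.51 and 8.65 in Ocn+ and 9.19, 7.40, 10.61 and 7.12 in Osx+ arrays, a difference of 0.05 (SE 0.93). Cxcl10 was 13.04, 11.84 and 12.02 in Ocn+ and 12.83, 11.54, 12.89 and 11.55 in Osx+ arrays, a difference of 0.10 (SE 0.48). The low-Xist arrays were on top in both genes. With the Xist class in the model the Cxcl10 difference was 0.30 (SE 0.12, limma adjusted p = 0.290) and the Cxcl9 difference 0.42 (SE 0.46). Cxcl11 was dimmer, with 6.13 in Ocn+ replicate 1, 6.67 in Osx+ replicate 3 and 4.35 to 4.83 in the other arrays, so it did not separate the Xist classes.

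The promoters of Cxcl9 and Cxcl10, which separated the Xist classes, are set beside those of Cxcl1 and Cxcl2, which did not. These genes were chosen with their values known. The Cxcl2 mean was still 0.60 higher in low-Xist arrays. Shown are the 250 bases before the start site from RefSeq (GRCm38.p6), each 5′ to 3′ on the strand of the gene. Capitals mark matches to an interferon element (GAAA-NN-GAAA) or a kB element (GGGA-NN-TTCC), the site of NF-kB, on either strand.
Cxcl9: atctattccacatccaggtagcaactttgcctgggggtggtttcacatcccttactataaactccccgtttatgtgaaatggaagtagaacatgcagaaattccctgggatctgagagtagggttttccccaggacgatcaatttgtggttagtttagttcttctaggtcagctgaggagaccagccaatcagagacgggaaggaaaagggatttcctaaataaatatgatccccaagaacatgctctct
Cxcl10: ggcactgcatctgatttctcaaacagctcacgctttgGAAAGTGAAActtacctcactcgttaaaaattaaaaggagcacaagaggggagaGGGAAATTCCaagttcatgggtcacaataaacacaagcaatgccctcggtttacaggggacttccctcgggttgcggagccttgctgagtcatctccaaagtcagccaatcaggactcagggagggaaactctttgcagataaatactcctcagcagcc
Cxcl1: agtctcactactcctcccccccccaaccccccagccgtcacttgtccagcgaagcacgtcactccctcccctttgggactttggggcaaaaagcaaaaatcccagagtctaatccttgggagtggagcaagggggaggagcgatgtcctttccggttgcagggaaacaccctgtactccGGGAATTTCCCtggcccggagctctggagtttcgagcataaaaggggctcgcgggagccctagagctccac
Cxcl2: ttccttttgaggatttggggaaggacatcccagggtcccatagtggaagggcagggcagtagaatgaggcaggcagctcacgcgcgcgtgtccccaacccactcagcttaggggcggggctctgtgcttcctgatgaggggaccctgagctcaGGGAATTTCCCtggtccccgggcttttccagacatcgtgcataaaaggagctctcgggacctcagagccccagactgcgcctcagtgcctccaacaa

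The windows are chr5:92328080-92328329 (minus strand) for Cxcl9, chr5:92348890-92349139 (minus strand) for Cxcl10, chr5:90890995-90891244 (plus strand) for Cxcl1 and chr5:90903649-90903898 (plus strand) for Cxcl2. Cxcl1 and Cxcl2 hold the same kB match, read on both strands with overlap, and no interferon element. Cxcl10 holds both kinds of match, without overlap, and Cxcl9 neither in this window. Of 32851 promoter windows of the same length, 1.21% held the kB element and 2.98% the interferon element. Among 39 members with a window, the kB element was found for 5 (Ccl1, Ccr3, Cxcl1, Cxcl2 and Cxcl10) and the interferon element for 2 (Cxcl10 and Cxcl14). Of these genes only Cxcl10 separated the Xist classes. Any part of the elements in that pattern was not tested. A match describes the letters and is no evidence that a factor binds.

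The remaining named ligands have their own receptors or none that is settled. Cxcl14, a chemokine of epithelium and stroma, was 13.21, 10.99 and 12.27 in Ocn+ and 11.85, 10.19, 12.13 and 10.82 in Osx+ arrays. Its mean was higher in Ocn+ within each Xist class, by 1.13 among the 4 high-Xist and 1.21 among the 3 low-Xist arrays, the latter with a single Ocn+ array. The difference was 0.91 (SE 0.65, limma adjusted p = 0.999), and with the class in the model 1.16 (SE 0.34, limma adjusted p = 0.200). Without Ocn+ replicate 1 the difference was 0.39 and without Ocn+ replicate 2 it was 1.49. Its other probe set gave 1.05. Cx3cl1, the membrane-tethered ligand of CX3CR1 that vessels display, was 10, 8.81 and 8.30 in Ocn+ and 10.11, 7.21, 9.65 and 7.32 in Osx+ arrays. It differed by 0.47 (SE 0.84), and with the class in the model by 0.82 (SE 0.29, limma adjusted p = 0.263). Cxcl17, a mucosal chemokine, was 4.92, 4.97 and 4.56 in Ocn+ and 4.91, 4.94, 5.01 and 5.23 in Osx+ arrays, a difference of -0.21 (SE 0.17).

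The 12 ligands outside the rule for named genes differed by -1.08 to 0.21, the smallest limma p among them being 0.317. They include the eosinophil attractants Ccl11 and Ccl24, with differences of -0.26 (SE 1.28) and -0.92 (SE 0.86). Ccl25, the ligand of CCR9, differed by 0.21 (SE 0.31), Ccl20, the ligand of CCR6, by -0.54 (SE 0.75) and Ccl17, the other ligand of CCR4, by 0.07 (SE 0.39). Ccl28 and Ccl1 differed by -0.09 (SE 0.18) and 0.01 (SE 0.16).

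Among the receptors, Ccr9, which guides lymphoid progenitors to thymus and gut, had the smallest p. It was 4.89, 4.94 and 4.55 in Ocn+ and 5.32, 5.12, 5.80 and 5.13 in Osx+ arrays. All Ocn+ arrays lay below all Osx+ arrays, in a signal range below the 25th percentile of genes. The difference was -0.55 (SE 0.22, limma adjusted p = 0.935). The other probe sets of the gene differed by -0.41 (SE 0.17) and by -0.03 (SE 0.24), and the arrays overlapped in the latter.

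The atypical receptors held the largest positive differences. Ackr4, which takes up the homing chemokines of lymphoid tissue, was 7.97, 8.86 and 9.13 in Ocn+ and 6.35, 7.38, 5.84 and 8.72 in Osx+ arrays. Only Osx+ replicate 4 reached into the Ocn+ range, and the low-Xist arrays were the lowest of each group. The difference was 1.58 (SE 0.69), a 3.00-fold brighter mean, and the adjusted limma p was 0.956. With the class in the model it was 1.32 (SE 0.38, limma adjusted p = 0.200).

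Ackr1, the Duffy receptor of venous endothelium and red cell precursors, was 10.59, 7.84 and 8.03 in Ocn+ and 6.11, 7.79, 9.73 and 7.46 in Osx+ arrays. The groups overlapped, and the difference of 1.05 (SE 0.97) was 0.16 without Ocn+ replicate 1. Endothelial markers were also higher in the Ocn+ arrays, with Cdh5, the cadherin of endothelial junctions, at 9.49 to 10.95 against 5.80 to 7.62. Their part in the Ackr1 and Ackr4 values was not tested. Ackr3, the scavenger of CXC ligands, was 12.96, 13.28 and 13.14 in Ocn+ and 13.02, 13.32, 13.09 and 13.38 in Osx+ arrays. It lay within 0.42 log2 units in all arrays, with a difference of -0.08 (SE 0.17). Ackr2, the scavenger of inflammatory CC ligands, was 6.59, 6.30 and 6.41 in Ocn+ and 6.21, 6.35, 6.39 and 6.16 in Osx+ arrays, a difference of 0.16 (SE 0.15).

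The receptors of CC ligands were mostly dim. Ccr1, the receptor of Ccl3, Ccl6 and Ccl9 on neutrophils, monocytes and osteoclasts, was the exception, at 9.18, 8.59 and 9.0 in Ocn+ and 8.16, 8.72, 8.94 and 6.96 in Osx+ arrays. Its difference was 0.73 (SE 0.47, limma adjusted p = 0.999) and rested in part on Osx+ replicate 4, without which it was 0.32. The second Ccr1 probe set gave -0.19. Ccr3, the eotaxin receptor of eosinophils, was 4.24, 4.04 and 6.47 in Ocn+ and 3.74, 4.03, 3.97 and 3.77 in Osx+ arrays. A single array, Ocn+ replicate 3, set the difference of 1.04 (SE 0.56), which was 0.26 without it. The mean of 9 mast cell and eosinophil markers was 6.19, 6.71 and 5.39 in Ocn+ and ran from 4.54 to 6.15 in Osx+ arrays, with 5 markers above 0 in difference and 4 below. The granule gene Prg2, with the smallest p of this list, stood at 6.79, 12.24 and 10.67 in Ocn+ and at 4.17 to 5.05 in Osx+ arrays. Its difference was 5.35 (SE 1.15, limma adjusted p = 0.689). Epx, another granule gene, stood at 5.80, 9.18 and 7.92 in Ocn+ and at 4.80 to 5.24 in Osx+ arrays. Siglecf and Il5ra, also of eosinophils, were dim, from 3.57 to 5.33 and from 3.83 to 4.45. They differed by -0.14 (SE 0.44) and -0.00 (SE 0.20). The part of these markers in the Ccr3 value was not tested.

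Ccr2, the monocyte receptor, was 5.20, 4.77 and 5.67 in Ocn+ and 3.10, 6.87, 5.75 and 5.71 in Osx+ arrays. The Osx+ arrays spanned the lowest and the highest value, and the difference was -0.14 (SE 0.82). Ccr7, which brings dendritic cells and naive T cells to lymph nodes, was 6.08, 4.86 and 4.59 in Ocn+ and 8.04, 4.38, 6.15 and 4.99 in Osx+ arrays, a difference of -0.72 (SE 0.87). It was -0.00 without Osx+ replicate 1. The low-Xist arrays stood above the high-Xist arrays here too.

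Cxcr4, the receptor that holds blood progenitors, B cell precursors and neutrophils in marrow, was 12.29, 12.69 and 12.86 in Ocn+ and 12.90, 13.15, 10.82 and 11.93 in Osx+ arrays. Osx+ replicate 3 was the lowest and Osx+ replicate 2 the highest of the 7 arrays. The difference was 0.42 (SE 0.55) and its direction turned without Osx+ replicate 3, at -0.04. Cx3cr1, the receptor of Cx3cl1 on monocytes and macrophages, was 7.17, 6.76 and 7.69 in Ocn+ and 8.18, 9.74, 6.51 and 7.58 in Osx+ arrays, a difference of -0.80 (SE 0.70). Without Osx+ replicate 2 it was -0.22.

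Receptors of lymphocytes and neutrophils were dim in both groups. Cxcr2 was 4.55, 4.56 and 4.24 in Ocn+ and 4.31, 4.87, 4.64 and 5.10 in Osx+ arrays, a difference of -0.28 (SE 0.22). Cxcr3, the T cell receptor of Cxcl9 and Cxcl10, was 6.18, 5.48 and 5.90 in Ocn+ and 4.70, 6.62, 5.39 and 5.45 in Osx+ arrays, a difference of 0.31 (SE 0.44), which was 0.03 without Osx+ replicate 1 and 0.67 without Osx+ replicate 2. Cxcr5, the B cell receptor of Cxcl13, was 5.13, 4.69 and 4.22 in Ocn+ and 4.90, 4.24, 4.39 and 4.19 in Osx+ arrays, a difference of 0.25 (SE 0.28), which was 0.02 without Ocn+ replicate 1 and 0.48 without Ocn+ replicate 3. The other 7 receptors (Ccr1l1, Ccr4, Ccr6, Ccr8, Ccr10, Cxcr6 and Xcr1) differed by -0.16 to 0.05, with a smallest limma p of 0.364.

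The ligands varied between arrays far more than between groups. The range over the 7 arrays exceeded 2 log2 units for 16 of 31 ligands (51.6%) and 8 of 21 receptors (38.1%), against 16.1% of all genes. The median SD within groups was 0.72 for ligands, 0.39 for receptors and 0.37 for all genes. Ocn+ replicate 1 was the highest of the 3 Ocn+ arrays for 25 of 31 ligands, where it was so for 49.8% of all genes, and the lowest for 0, where it was so for 34.8% of all genes. In the Osx+ group the highest array was replicate 1 for 14 ligands and replicate 3 for 11, where these were so for 38.7% and 26.1% of all genes.

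These are the 3 low-Xist arrays. They stood wholly above the high-Xist arrays for 11 ligands (35.5%, against 21.4% of all genes) and wholly below for 0 (against 12.9%). The 11 ligands were Ccl2, Ccl5, Ccl7, Ccl8, Ccl11, Ccl20, Ccl24, Cxcl5, Cxcl9, Cxcl10 and Cx3cl1. Their means in low-Xist arrays were 0.80 to 3.18 log2 units higher. Ccl11, or eotaxin, had the widest gap, with 10.43, 9.21 and 11.24 in the low-Xist arrays and 6.37 to 7.56 in the others. Of the receptors, Ccr7 and Ccr1l1 stood wholly above and Ackr3 wholly below in low-Xist arrays. The median gap between the classes was 0.80 for ligands and 0.14 for receptors, the same as the 0.14 of all genes. The class was set from Xist alone, after its values were known, so these counts are a description with no test, and what else the arrays of a class share is not given by the labels.

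**Figure D3:**
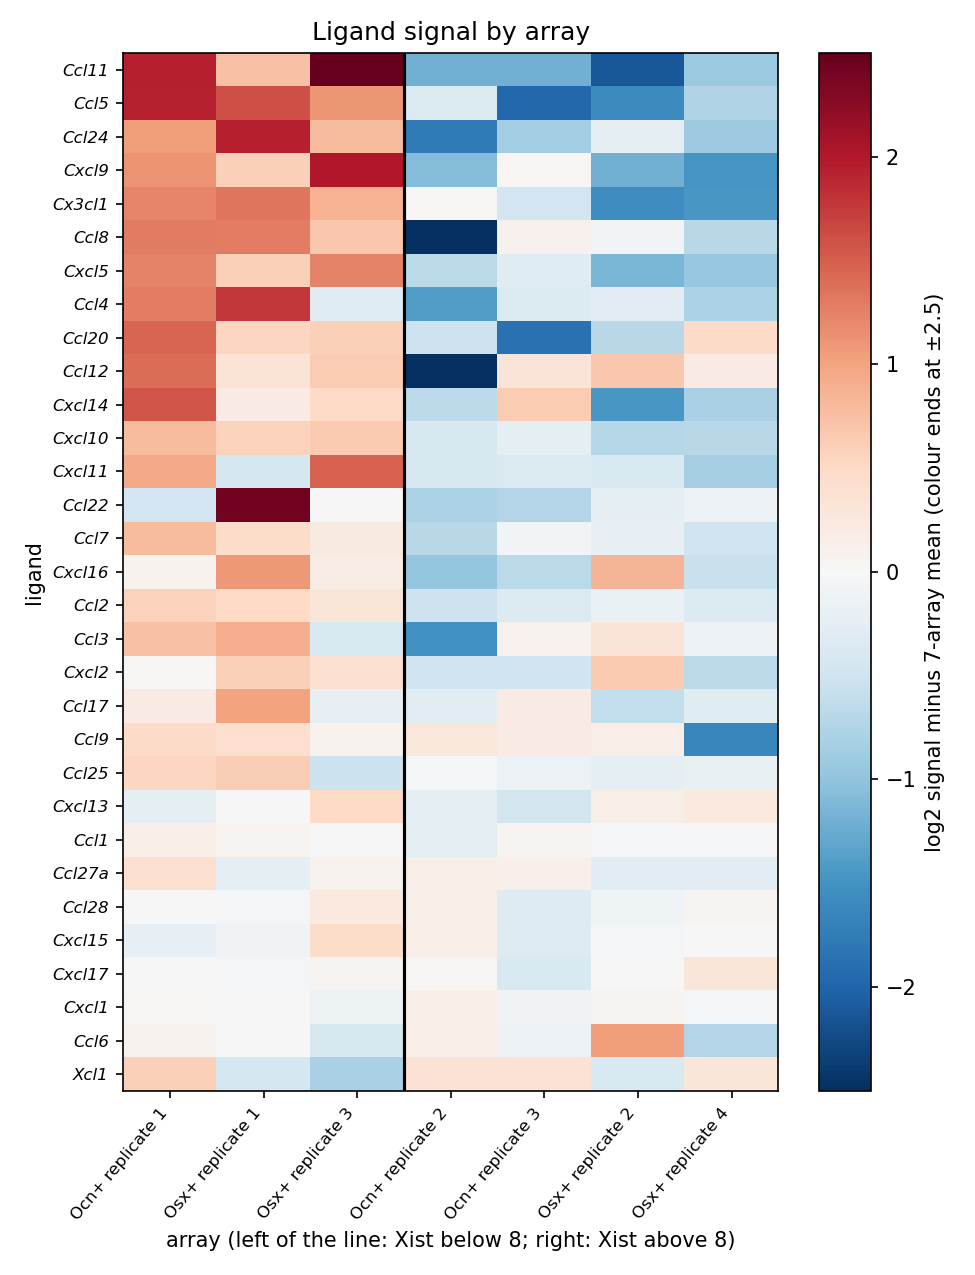
Log2 signal of the 31 ligands in each array minus the mean of the 7 arrays, with rows ordered by the gap between Xist classes and a line between the 3 low-Xist and 4 high-Xist arrays. Upper rows from Ccl11 to Cxcl10 are mostly red at the left and blue at the right whatever the group, and Cxcl1, Cxcl17 and Ccl28 are pale throughout.

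**Figure D4:**
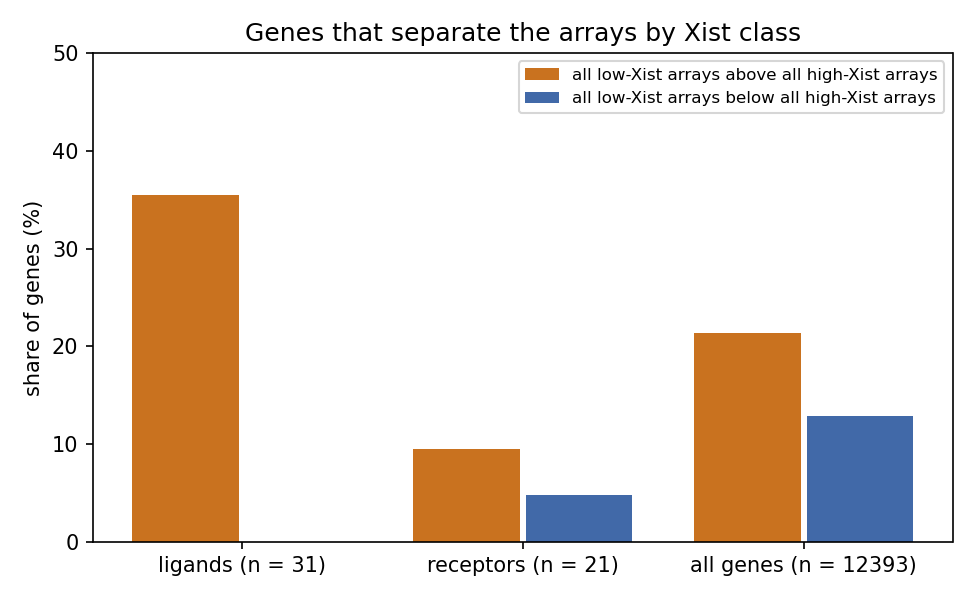
Share of ligands, receptors and all genes whose low-Xist arrays lay all above (orange) or all below (blue) the high-Xist arrays. Ligands reach 35.5% above and 0 below, receptors 9.52% and 4.76%, and all 12393 genes 21.4% and 12.9%.

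Several of these ligands are neighbours in the genome. By the order of protein-coding genes in RefSeq, Ccl2, Ccl7, Ccl11, Ccl12, Ccl8 and Ccl1 follow each other on chromosome 11, and Ccl5, Ccl9, Ccl6, Ccl3 and Ccl4 form another run there. Of the first run Ccl2, Ccl7, Ccl11 and Ccl8 separated the Xist classes and Ccl12 and Ccl1 did not. Of the second only Ccl5 did. Cx3cl1 lies between Ccl22 and Ccl17 on chromosome 8, and neither neighbour separated the classes.

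The genes around the chemokine system were counted by list. Of the interferon inducers and targets, 11 were measured and 0 had an unadjusted limma p under 0.05 between the groups, while 5 stood wholly above in low-Xist arrays and 1 below, beside 21.4% and 12.9% of all genes. Their mean per array ran from 8.78 to 9.17 in the low-Xist and from 7.71 to 8.42 in the high-Xist arrays. Irf7, a factor of the interferon response, was 9.02, 7.08 and 7.95 in Ocn+ and 8.54, 6.51, 8.56 and 6.61 in Osx+ arrays. Of 18 NF-kB and inflammatory inducers 7 stood wholly above in low-Xist arrays and 1 below, to be read against the same shares. Between the groups 1 of them had an unadjusted limma p under 0.05, as had 5.31% of all genes. It was the cytokine Il1a, with a difference of -1.56 (SE 0.36, limma adjusted p = 0.689). Il1b differed by -1.46 (SE 0.68).

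Relatives that the naming rule passed over included a larger group difference than any member. Ppbp, the platelet chemokine that acts on CXCR2, was 5.10, 4.52 and 5.78 in Ocn+ and 7.56, 8.64, 6.94 and 6.55 in Osx+ arrays. The groups were apart by a difference of -2.29 (SE 0.53, limma adjusted p = 0.689). Pf4, the other platelet chemokine, was 12.24, 10.25 and 11.74 in Ocn+ and 12.80, 12.85, 12.46 and 11.97 in Osx+ arrays, a difference of -1.11 (SE 0.48). Megakaryocyte and platelet markers, 7 of them measured, included Ppbp and Pf4. Their mean ran from 6.72 to 7.35 in Ocn+ and from 7.12 to 7.80 in Osx+ arrays. At an unadjusted limma p under 0.05, 0 were higher and 1 lower, beside 3.48% and 1.83% of all genes. The lower gene was Ppbp itself. Of the rest, Itga2b, Gp5 and Treml1 differed by 0.41, 0.22 and 0.14, and Gp9 and Gp1bb by -0.12 and -0.10. Gpr182, an endothelial receptor that binds chemokines, differed by 0.99 (SE 0.31).

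Of 29 measured genes of receptor signalling 18 had a difference above 0 and 11 below, with a median of 0.04. An unadjusted limma p under 0.05 was reached by 2 of them, both lower in Ocn+. Of all genes 5.31% reached it in either direction, a share near that of the list. As lower it was reached by 1.83% of all genes, a smaller share. Rgs1, which ends G protein signals of leukocyte chemokine receptors, differed by -1.69 (SE 0.51), and Dock2, the Rac activator of migrating leukocytes, by -1.04 (SE 0.34). Rac2, its target in blood cells, differed by 1.38 (SE 0.59). Of 12 proteases that cleave chemokines 4 reached that level, all higher in Ocn+, as were 3.48% of all genes. The neutrophil proteases Ctsg, Prtn3 and Elane led, with differences of 4.29 (SE 1.05), 3.61 (SE 0.99) and 3.64 (SE 1.01). No gene of these lists passed over all genes. Neutrophil and macrophage markers differed between the same arrays, but Ctsg, Prtn3 and Elane are themselves among the 11 neutrophil markers. Mmp9, also a protease higher in Ocn+, is among the osteoclast markers. These counts therefore share genes.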

How the data were processed

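The series holds 1 table of 7 Affymetrix arrays. RNA was amplified with the NuGEN Ovation V2 method, per the labels' protocols. The deposited values are log2 signals that the authors made with RMA, per the submitters' processing notes; the software version is not given in the sources used here. RMA forces equal distributions, so total RNA per cell cannot be read. Arrays have no read depth; their number, 3 against 4, limits precision.

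Of 22690 probe sets 64 were controls, 20380 had 1 symbol in the platform annotation, 691 several and 1555 none listed; 20351 matched a current RefSeq symbol by Entrez identifier (GRCm38.p6). Each gene was read by its probe set of highest mean, and 14 members had more than 1. The fit was limma 3.58.1 in R 4.3.3 (lmFit, eBayes, 2-sided, group only, Benjamini-Hochberg over 12393 genes). In simulated data of 3 against 4 arrays it recovered 27.5% of changes of 1 log2 unit. It recovered 65.9% of changes of 2 and 92.7% of changes of 4 log2 units. The simulated noise was independent between arrays and held no Xist class, so these shares may not hold for the real arrays. Values in every array were given for the 8 ligands and 5 receptors of smallest p and for a list of textbook members; Ccl11 and others outside it were chosen after their values were seen. From each list at most the 3 genes of smallest p were taken, with exceptions. Irf7, Mmp9, Siglecf, Il5ra, the rest of the platelet list and the bone markers were also chosen after seeing values. The members, the 5 pathway and 12 marker lists and the Xist class (log2 limit 8) were chosen with earlier results of these data known. Alternatives covered the replicate number, each array, dim genes, normalization, prior, array weights, probe set choice and Xist class.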

Additional observations from a re-analysis of the deposited data

Results flagged for a closer look

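Among the 4 Osx+ arrays, 1 array stood far from the other 3 for 6 of 52 members (11.5%), and for 5.31% of all 12393 genes. Chance flags about 1 in 20. Ccl20 was 5.32 in Osx+ replicate 2 against 6.49 to 6.61 in the others, and Ccr10 was 5.12 in the same array against 5.57 to 5.61. Ccl22 was 8.04 in Osx+ replicate 1 against 5.39 to 5.62. Ccl9 was 10.68 in Osx+ replicate 4 against 12.39 to 12.73. Cxcl15 was 4.47 and Ccr6 was 6.06 in Osx+ replicate 3, against 3.92 to 4.02 and 4.58 to 4.75. The 3 Ocn+ arrays are too few for this check.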

How the results depend on the processing

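With 3 and 4 arrays and no detection calls, dim members carry little information. After adjustment 0 genes passed; leaving out single arrays gave 0 to 3 (3 without Osx+ replicate 2 and 3 without Osx+ replicate 3), and array weights, which counted the low-Xist arrays least, gave 97. At an adjusted p under 0.1 the count was 0. The 4 members with an unadjusted p under 0.05 became 0 to 6 when single arrays were left out, 0 when dim genes were dropped below the 25th percentile or below the median (29 and 14 members kept), 2 when a gene was read by averaging its probe sets and 2 by its most variable one, 7 with array weights (17.8% of all genes) and 8 with the Xist class (16.0%). The 43 list genes became 20 above the median signal and 66 with array weights. The receptor median became 0.42 over the 7 receptors above the 25th percentile. The ligand median ran from -0.38 to 0.24 without single arrays. The cause of these shifts was not tested.

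The labels do not say that replicate numbers pair the arrays, so the numbers were not taken as pairs. Same-numbered arrays correlated at 0.63, 0.45 and -0.30. Differently numbered arrays of the same Xist class correlated at 0.41 to 0.57, and arrays of different class at -0.68 to -0.30. The correlations followed the class, so they cannot decide on pairing. With the replicate block 7 members had an unadjusted p under 0.05 (6.68% of all genes), 0 genes passed, and Ccl6, Cxcl10, Cxcl5 and Cxcl9 turned to -0.18, -0.12, -0.15 and -0.44.

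Of 33 named members 16 kept their direction in every alternative run, and 0 passed the adjusted threshold in any. Without single arrays the difference ran from -0.15 to 0.01 for Ackr3, -0.49 to 0.06 for Ccl2, -0.90 to 0.24 for Ccl3, -0.97 to 0.37 for Ccl4, -1.24 to 0.70 for Ccl5, -0.18 to 0.41 for Ccl6, -0.90 to 0.36 for Ccr2, -0.02 to 0.98 for Cx3cl1, -0.01 to 0.11 for Cxcl1, -0.27 to 0.33 for Cxcl10, -0.43 to 0.59 for Cxcl5, -0.50 to 0.72 for Cxcl9 and -0.04 to 0.73 for Cxcr4. Reading the most variable probe set gave -0.04 for Ackr2 and -0.30 for Ccl6, and the mean of probe sets -0.12 for Ccl6. Array weights gave 0.06 for Ccl5 and -0.10 for Cxcr3. The Xist class as a term gave 0.01 for Ccl4 and 0.24 for Ccl5. Within the high-Xist arrays Ccl5 was 0.02, Ccl6 -0.14, Ccr7 0.04 and Cxcr3 -0.35. Within the low-Xist arrays, which hold 1 Ocn+ array, Ccl2 was 0.19, Ccl3 0.47, Ccl4 0.54, Ccl5 0.57, Ccr2 0.78, Cxcl9 -0.17 and Cxcr2 0.07.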
